A study of Caenorhabditis elegans with 6 samples.

Results

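The gut cathepsin B and aspartyl proteases of Caenorhabditis elegans were followed from the last larval stage to day 10. They comprise 10 genes chosen by name: the cathepsin B-like cysteine proteases cpr-1, cpr-3, cpr-4, cpr-5 and cpr-6, and the aspartyl proteases asp-1, asp-3, asp-4, asp-5 and asp-6. All 10 were found by WormBase identifier among 46940 features of the count table, and all 10 passed the filter on low counts. The RNA came from whole, untreated worms of the wild-type N2 Bristol strain, kept at 20 °C on nematode growth medium, with 3 samples labelled Day 10 and 3 labelled L4. The labels do not say from which event day 10 is counted or how progeny were handled, and no young adults were sampled, so maturation and ageing cannot be told apart. The labels name no separate cultures behind the samples of an age, and the spread on which each p-value rests may therefore be a technical one.

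The worm intestine is both the digestive organ and the main site of storage, and its cells are rich in lysosome-related organelles, the gut granules. Cathepsins are proteases that work in an acidic compartment. The cathepsin B-like enzymes of the papain family cut with a cysteine, and the aspartyl proteases of the pepsin and cathepsin D family cut with a pair of aspartates. Both kinds are made as inactive proenzymes and are used for protein breakdown in lysosomes and in the gut lumen. In worm neurons, asp-3 and asp-4 are also known as executioners of necrotic cell death.

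The libraries held 19576201 to 25616846 counts, and the 10 proteases had 1335 to 191252 counts each per age, so counting error is small beside the spread between libraries. Day 10 replicate 3 stood farther from the other day 10 libraries than these did from each other, with Pearson correlations of log2 CPM (counts relative to the library total, with TMM scaling for library composition) across genes of 0.986 and 0.990 against 0.995. The proteases were among the genes on which that library differed, so the fold change of each member is also given without it, and shares and ratios are given for each day 10 library. Replicate 3 was singled out after its values were seen, so the fits without it are no independent test. Of 15956 genes tested between the ages, 85.4% passed at 0.05 after Benjamini-Hochberg adjustment of edgeR's quasi-likelihood p, with 40.5% higher and 45.0% lower at day 10. Over all tested genes the log2 fold change had a median of −0.16, which became 0.00 under the size factors of DESeq2 and −0.62 under upper-quartile scaling. A small change in a protease therefore depends on the scaling.

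On the WBcel235 assembly, 7 of the 10 genes lie on chromosome V and 3 on chromosome X, and each has 1 annotated transcript. The cathepsin B-like genes are cpr-1 (WBGene00000781, V, 11975551 to 11976756, plus strand), cpr-3 (WBGene00000783, V, 15296834 to 15298700, minus), cpr-4 (WBGene00000784, V, 6614674 to 6615851, plus), cpr-5 (WBGene00000785, V, 1132598 to 1134036, minus) and cpr-6 (WBGene00000786, X, 6607207 to 6609045, plus). Their coding sequences run to 329, 370, 335, 344 and 379 codons. The aspartyl protease genes are asp-1 (WBGene00000214, V, 19049562 to 19050752, minus), asp-3 (WBGene00000216, X, 6791064 to 6792709, plus), asp-4 (WBGene00000217, X, 13218985 to 13221462, minus), asp-5 (WBGene00000218, V, 8272385 to 8274044, plus) and asp-6 (WBGene00000219, V, 8267511 to 8268937, minus). Their coding sequences run to 396, 398, 444, 393 and 389 codons. The gene asp-1 has a single exon, while cpr-6 has 8.

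Several members sit beside a relative. The genes asp-6 and asp-5 are 3447 bases apart and point away from each other, and the gap holds a further aspartyl protease gene, asp-12. The nearest coding gene to cpr-5 is the cathepsin-like cpr-8, 565 bases away, and the nearest to asp-1 is asp-15, 4708 bases away. Whether reads were split between such relatives was not tested. The end of asp-4 overlaps R12H7.4 on the other strand, which held 14 counts at day 10 and 0 in L4, and whether reads in the overlap were dropped in counting is not known.

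Most of these proteases had lower transcript levels at day 10 than in L4 larvae, but the fall was uneven, and the most abundant of them in the older worms, the aspartyl protease asp-6, did not pass the test. Of the 10 genes, 7 fell, 1 rose and 2 did not pass the test, where 45.0% of all tested genes fell and 40.5% rose. All 7 that fell did so by over 2-fold, as did 37.2% of all tested genes, but without day 10 replicate 3 the falls of asp-4 and asp-5 were 1.89-fold and 1.82-fold. The ages did not overlap for 8 members, against 87.6% of tested genes: day 10 libraries lay wholly below the L4 libraries for 8, against 46.2%, and wholly above them for none, against 41.3%. The median log2 fold change of the 10 was −1.73. Without day 10 replicate 3, singled out after its values were seen, it was −1.47. All 10 members then passed, where 87.0% of tested genes did. Of these, 8 were lower, against 46.0% of tested genes, and 2 were higher, against 41%. In the authors' deposited table, which rests on the same libraries, 7 members were lower and 1 higher at an adjusted p under 0.05. The share of all features that passed in that table was not computed. Levels are relative to the RNA of the whole worm. Fewer intestinal cells, less protease RNA per cell and more RNA from other tissues therefore cannot be told apart.

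Among the cathepsin B-like genes, cpr-5 fell most. It stood at 1943, 2223 and 2142 CPM in the L4 libraries and at 121.6, 105 and 57.3 CPM at day 10. The log2 fold change was −4.47 ± 0.34 (edgeR's estimate with the SE of log2(CPM + 0.5), n = 3 per age; edgeR's adjusted p = 2.78e-05), a 22.2-fold lower level, and 18.3-fold without day 10 replicate 3. The second-ranked L4 protease thus ended among the scarcest of the set.

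The gene cpr-4, whose product is known in worms as a secreted cathepsin B homologue, stood at 745, 835 and 810.2 CPM in L4 and at 65.2, 82.7 and 80.1 CPM at day 10. It fell 10.5-fold (log2 fold change −3.39 ± 0.12; edgeR's adjusted p = 9.46e-09), and 10.6-fold without day 10 replicate 3. Its day 10 libraries lay close together, and cpr-4 was the only member not lower in replicate 3 than in both other day 10 libraries. The gene cpr-6, another cathepsin B homologue, stood at 1108, 1154 and 1129 CPM in L4 and at 296, 228 and 137 CPM at day 10. It fell 5.13-fold (log2 fold change −2.36 ± 0.33; edgeR's adjusted p = 0.000391), and 4.24-fold without day 10 replicate 3.

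The gene cpr-1, first described as a gut-specific cysteine protease, behaved otherwise. It stood at 358, 415 and 403 CPM in L4 and at 316, 269 and 103 CPM at day 10. All day 10 libraries were below all L4 libraries, yet the log2 fold change of −0.77 ± 0.51 did not pass the test (edgeR's adjusted p = 0.130). Limma's 95% interval for the log2 difference ran from −2.11 to 0.26. That outcome depended on replicate 3: without it the log2 fold change was −0.40 and passed (edgeR's adjusted p = 0.000945), with a smaller fall of 1.32-fold. The fall did not pass without day 10 replicate 1 (edgeR's adjusted p = 0.104) or without day 10 replicate 2 (0.15). The outcome depended on the scaling too: with upper-quartile factors and all libraries the log2 fold change was −1.23 and passed (edgeR's adjusted p = 0.0307).

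The scarcest member, cpr-3, was the only 1 that rose. It stood at 29.3, 18.3 and 16.6 CPM in L4 and at 44.9, 45.2 and 26.4 CPM at day 10, so day 10 replicate 3 lay below L4 replicate 1. The log2 fold change was 0.86 ± 0.35 (edgeR's adjusted p = 0.0267), and it was 1.10 without day 10 replicate 3 (adjusted p = 0.0173). The rise no longer passed without day 10 replicate 1 (adjusted p = 0.101), day 10 replicate 2 (0.0722), L4 replicate 2 (0.081) or L4 replicate 3 (0.0743), nor with upper-quartile factors (0.214) or no filter on low counts (0.109).

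**Figure D1:**
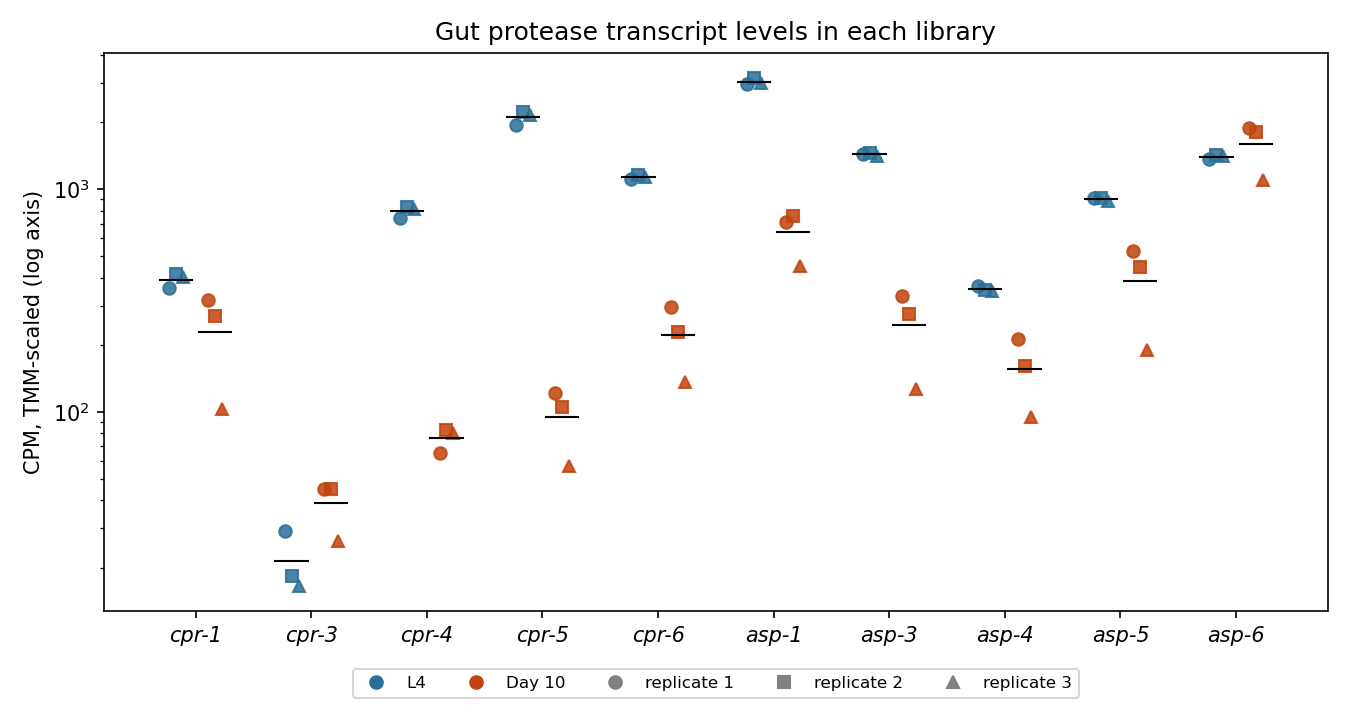
Transcript level of each gut protease in each library, as TMM-scaled CPM on a log axis, with L4 libraries in blue, day 10 libraries in orange, a marker shape for each replicate number and a black line at each mean of 3. The day 10 triangle, replicate 3, is the lowest day 10 library for 9 of the 10 genes, and the day 10 and L4 points overlap for cpr-3 and asp-6.

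Of the aspartyl proteases, asp-1, an abundant intestinal enzyme, was the most highly expressed in L4. It stood at 2953, 3140.1 and 2990.5 CPM in L4 and at 711, 755 and 454 CPM at day 10. This was a 4.73-fold fall (log2 fold change −2.24 ± 0.23; edgeR's adjusted p = 2.46e-05), and 4.07-fold without day 10 replicate 3.

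The genes asp-3 and asp-4, homologues of cathepsin D, both fell, by different amounts. For asp-3 the L4 libraries held 1431, 1457 and 1407 CPM and the day 10 libraries 332, 276 and 127 CPM. Its fall was 5.85-fold (log2 fold change −2.55 ± 0.42; edgeR's adjusted p = 0.00107), and 4.64-fold without day 10 replicate 3. For asp-4 the L4 libraries held 367, 353 and 348 CPM and the day 10 libraries 212, 160.2 and 94.9 CPM. Its fall was 2.29-fold (log2 fold change −1.19 ± 0.34; edgeR's adjusted p = 0.00913), and 1.89-fold without day 10 replicate 3. The ratio of asp-4 to asp-3, in FPKM (counts scaled for gene length and library total), was 0.249 ± 0.00699 in L4 and 0.655 ± 0.0855 at day 10 (mean ± SD, n = 3), with 0.637, 0.581 and 0.749 in day 10 replicates 1 to 3. The ratios did not overlap, and the exact two-sided permutation p of 0.10 is the smallest that 3 against 3 libraries can give.

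The neighbours asp-5 and asp-6 went apart. The L4 libraries held 914, 913 and 882 CPM of asp-5, and the day 10 libraries 529.8, 445 and 189 CPM. It fell 2.33-fold (log2 fold change −1.22 ± 0.46; edgeR's adjusted p = 0.0260), and 1.82-fold without day 10 replicate 3. By contrast, asp-6 stood at 1365, 1428 and 1402 CPM in L4 and at 1873, 1794 and 1098 CPM at day 10. Day 10 replicates 1 and 2 were above every L4 library and replicate 3 below them all.

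The log2 fold change of asp-6 was 0.18 ± 0.25 and did not pass (edgeR's adjusted p = 0.403), with a 95% interval by limma from −0.39 to 0.68. Without day 10 replicate 3 it was 0.41, a 1.33-fold higher level at day 10 that passed (edgeR's adjusted p = 3.27e-07). That library was singled out after its values were seen. The change did not pass without day 10 replicate 1 (edgeR's adjusted p = 0.779) or without day 10 replicate 2 (0.655). With upper-quartile factors the sign turned to −0.27. The ratio of asp-6 to asp-5, in FPKM, which no scaling between libraries affects, was 1.46, 1.53 and 1.55 in L4 and 3.46, 3.94 and 5.67 at day 10. All day 10 ratios exceeded all L4 ratios, a 2.81-fold shift (exact two-sided permutation p = 0.10, the smallest possible).

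**Figure D2:**
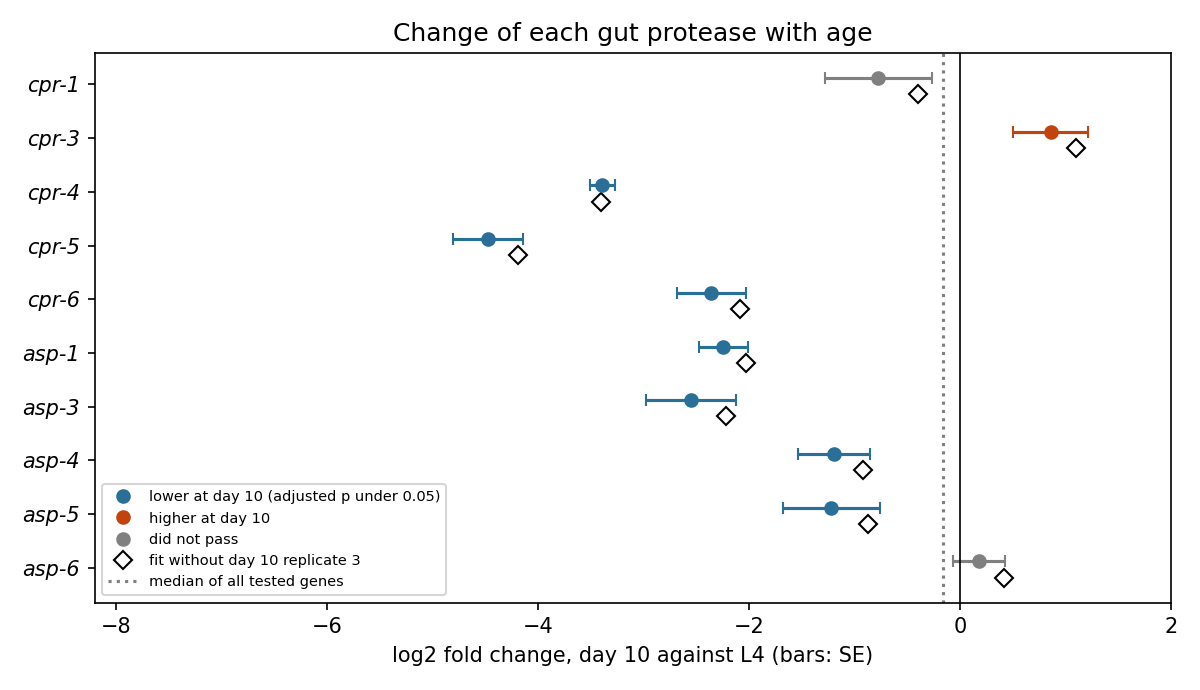
Log2 fold change of each gut protease, day 10 against L4, from edgeR with all 6 libraries (filled circles, bars show the SE) and without day 10 replicate 3 (open diamonds). Genes in blue fell, the gene in orange rose, grey genes did not pass, and the dotted line marks the median of all tested genes at −0.16; cpr-5 lies farthest left at −4.47.

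Per gene length, the order of the proteases changed between the ages. In L4 it was led by asp-1 at 2263 ± 40.0 FPKM (mean ± SD, n = 3), followed by cpr-5 at 1734 ± 97.6, asp-6 at 1091 ± 10.9, asp-3 at 969.6 ± 12.1 and cpr-6 at 899.8 ± 5.84 FPKM. Then came asp-5 at 720.1 ± 15.95 and cpr-4 at 705 ± 32.5 FPKM, which overlapped, then cpr-1 at 349.9 ± 22.6, asp-4 at 241 ± 8.99 and cpr-3 at 15.8 ± 5.26 FPKM. Every other pair of neighbours in the L4 order had ranges that did not overlap.

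At day 10 the order was led by asp-6 at 1243 ± 296 FPKM, whose range lay above that of asp-1, the next at 480.3 ± 108 FPKM. The gene asp-5 followed at 309 ± 134, cpr-1 at 204 ± 95.4, cpr-6 at 176 ± 59.1, asp-3 at 166 ± 67.8 and asp-4 at 106 ± 36.8 FPKM. Last came cpr-5 at 78.2 ± 25.4, cpr-4 at 68.1 ± 9.71 and cpr-3 at 28.7 ± 7.12 FPKM. From asp-1 down to cpr-4, each gene's range overlapped that of the next, so no pair of neighbours there differed beyond the spread between libraries, though genes farther apart did, such as asp-1 and cpr-1. Within each library, asp-1 was above asp-5, asp-5 above cpr-1, asp-3 above asp-4 and asp-4 above cpr-5 in 3 of 3 libraries.

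The proteases as a set made up a smaller part of the transcriptome at day 10, and a different mixture. Their counts summed to 1.15% ± 0.0194 of all counts in L4 and 0.366% ± 0.104 at day 10 (mean ± SD, n = 3), with 0.442%, 0.410% and 0.248% in day 10 replicates 1 to 3. The cathepsin B-like genes supplied 41.2% ± 1.00 of the set's summed FPKM in L4 and 19.3% ± 0.960 at day 10, and the aspartyl proteases the rest. In day 10 replicates 1 to 3 the cathepsin B-like share was 20.3%, 19.04% and 18.4%. The share of asp-6 went from 12.1% ± 0.129 to 43.9% ± 2.47, with 41.8%, 43.3% and 46.7% in those libraries. Its own level was 1091 ± 10.9 FPKM in L4 and 1243 ± 296 FPKM at day 10, and its change did not pass edgeR's test. The set's summed FPKM went from 8989 ± 165 to 2859 ± 810. The shares of asp-1 and cpr-5 went from 25.2% ± 0.239 to 17.1% ± 1.68 and from 19.3% ± 0.753 to 2.71% ± 0.151. The ratio of cpr-1 to cpr-5, in FPKM, was 0.202 ± 0.00205 in L4 and 2.51 ± 0.493 at day 10, with 2.81, 2.77 and 1.94 in replicates 1 to 3. None of these quantities overlapped between the ages, but neither did the levels of 87.6% of tested genes. The shift of this ratio follows from the log2 fold changes of cpr-1 and cpr-5, −0.77 and −4.47, and is no separate result.

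**Figure D3:**
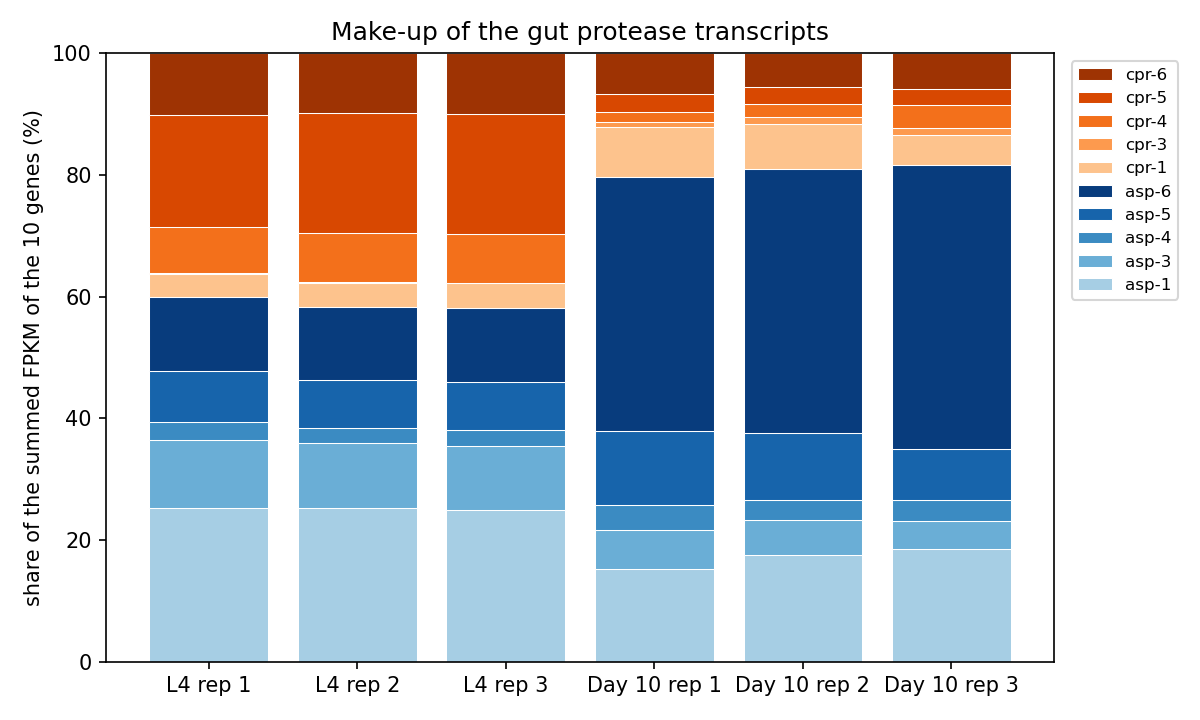
Make-up of the summed FPKM of the 10 gut proteases in each library, in percent, with aspartyl proteases in blues and cathepsin B-like genes in oranges. The L4 bars are alike, and asp-6, the darkest blue, takes 12.1% on average in L4 and 43.9% at day 10, while cpr-5 goes from 19.3% to 2.71%. The sum itself averages 8989 FPKM in L4 and 2859 FPKM at day 10, so a larger share is not a higher level.

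Most of the proteases varied more within day 10 than within L4. The log2 range over the 3 libraries was wider at day 10 than in L4 for 9 of the 10 genes, the exception being cpr-3. The share of all tested genes with a wider range at day 10 was not computed, so this count has no background. The wider spread was not confined to the proteases. Across genes, day 10 replicate 3 correlated with the other day 10 libraries at 0.986 and 0.990, against 0.995 to 0.996 between L4 libraries. Replicate 3 was the lowest day 10 library for 9 genes, the exception being cpr-4, and lay 0.5 or more below the mean of replicates 1 and 2 on the log2 scale for those 9. Of 4250 genes with a mean of at least 50 CPM, 5.72% lay that low, and their median difference was −0.05. The largest differences were −1.50 for cpr-1, −1.36 for asp-5 and −1.25 for asp-3. The smallest among the 9 were −0.69 for asp-1 and −0.74 for asp-6, and cpr-4 was at 0.12. Day 10 replicates 1 and 2 differed from each other by at most 0.40 on the log2 scale, for asp-4. This library was singled out after its values were seen.

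Other proteases of the same kinds shared the low values of replicate 3 in part. The median difference was −0.86 for the other aspartyl proteases, with asp-2 at −1.43 and asp-13 at −1.40, and −0.36 for the other papain-family cathepsins. For the intestine list the median was −0.22, with ges-1 at −1.53 and act-5 at 0.38. What sets that library apart was not tested.

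**Figure D4:**
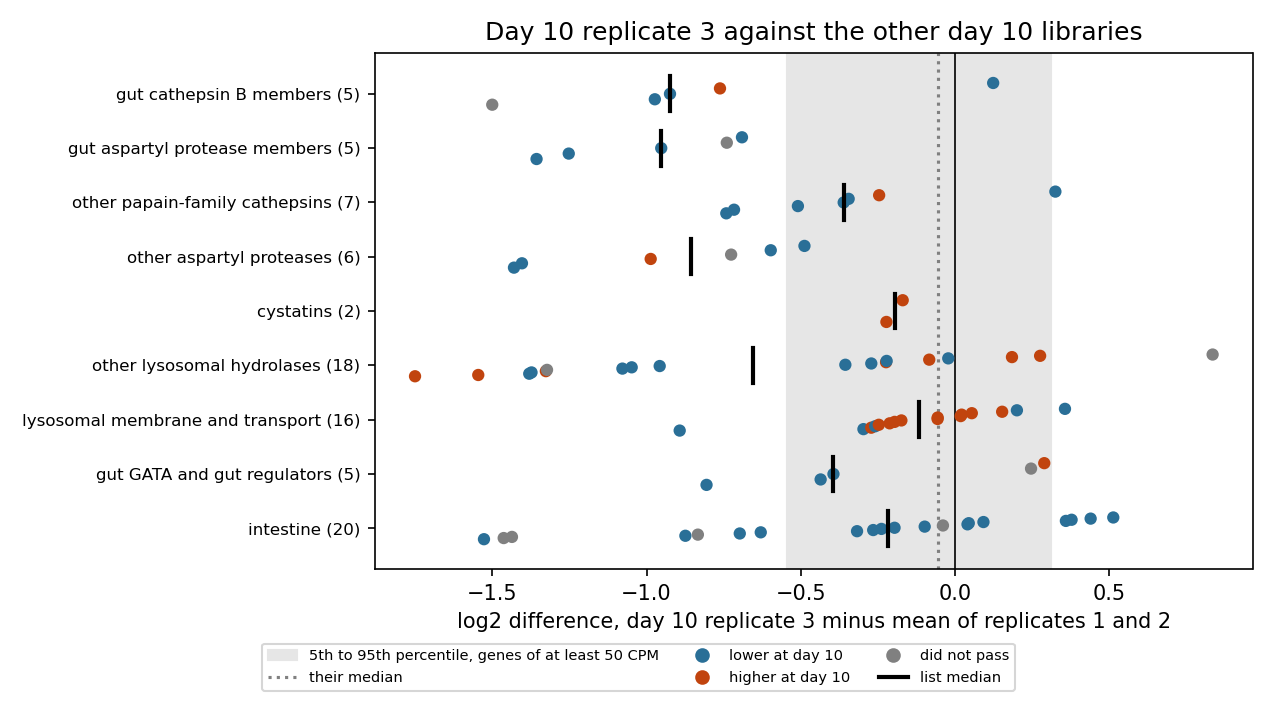
Log2 difference between day 10 replicate 3 and the mean of day 10 replicates 1 and 2 for each tested gene of the gut protease sets and related lists (number of tested genes in parentheses), coloured by its call between the ages. The grey band spans the 5th to 95th percentile of genes of at least 50 CPM, and 9 of the 10 gut proteases lie to its left, with cpr-4 inside it.

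The same fall with exceptions was seen among related proteases. Among 7 other papain-family cathepsins 6 fell and 1 rose, and their log2 fold changes had a median of −2.18, where 45.0% of all tested genes fell and 40.5% rose. Of the 6, tag-196 fell by only 0.27 on the log2 scale, with overlapping ages (edgeR's adjusted p = 0.0251). With DESeq2's size factors 5 fell. The cathepsin L gene cpl-1, needed for embryonic yolk processing, fell from 1975 ± 72.1 to 434 ± 59.9 CPM, and the cathepsin Z gene cpz-1, known for a part in moulting, from 1144 ± 20.1 to 119.8 ± 16.4 CPM. The gene cpr-2 went against them, from 0.205 ± 0.151 to 19.1 ± 1.99 CPM (edgeR's adjusted p = 1.58e-07). With 13 counts in L4 its log2 fold change depends on the scale, at 6.50 by edgeR (6.07 to 7.05 with an L4 library left out) and 4.82 by limma on log2(CPM + 0.5) (95% interval 4.37 to 5.26). The gene cpr-8, beside cpr-5, fell by 4.47 on the log2 scale, close to the −4.47 of cpr-5.

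Of 14 other aspartyl protease symbols, 12 were in the count table and 6 were tested; the others held few or no counts. Of the 6, 4 fell, 1 rose and 1 did not pass, against the same shares of all tested genes, with a median log2 fold change of −2.25. The gene asp-2 fell from 713 ± 13.1 to 68.5 ± 35.3 CPM and asp-13 from 390.3 ± 10.2 to 12.2 ± 6.99 CPM. The gene that rose was asp-12, between asp-5 and asp-6, from 2.66 ± 0.921 to 17.5 ± 6.65 CPM (log2 fold change 2.73; edgeR's adjusted p = 0.000161). In FPKM, asp-12 reached 0.0107 ± 0.00158 of asp-6 at day 10.

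Genes around the proteases in the lysosome moved in both directions, as did all tested genes, of which 45.0% fell and 40.5% rose. Both cystatins, inhibitors of papain-family proteases, rose, cpi-1 from 61.4, 55.2 and 51.5 CPM in the L4 libraries to 555 ± 48.1 CPM and cpi-2 from 106.4 ± 1.33 to 176 ± 12.5 CPM (edgeR's adjusted p = 7.00e-09 and 5.52e-06). Of 16 genes of the lysosomal membrane, trafficking and regulation, 11 rose and 5 fell, with a median of 0.55; with upper-quartile factors 7 rose and 6 fell. The tethering factor vps-39 rose from 54.4 ± 2.84 to 298 ± 3.19 CPM. The membrane protein lmp-1 was at 0.16, a rise that turned to a fall of 0.29 with upper-quartile factors and did not pass with no filter on low counts (adjusted p = 0.115), without L4 replicate 1 (0.0931) or without L4 replicate 3 (0.0867). The 5 that fell were hlh-30, the worm TFEB homologue, at −0.35, lmp-2 at −1.38, and glo-1, glo-3 and glo-4, needed for gut granules, at −1.38, −1.29 and −0.86. The fall of hlh-30 did not pass with DESeq2's size factors (adjusted p = 0.0804).

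Of 18 other lysosomal hydrolases, 9 fell, 7 rose and 2 did not pass, a split near those shares of all tested genes, with a median of −0.84. The hexosaminidase hex-1 rose from 54.7 ± 1.53 to 425 ± 36.5 CPM and the glucosidase aagr-3 from 264 ± 2.26 to 409 ± 13.6 CPM. The nuclease nuc-1 rose by 1.00 on the log2 scale. The lipases lipl-1 and lipl-3, the sphingomyelinase asm-3 and gba-2 also rose, but on 42, 24, 12 and 28 counts over the L4 libraries. Their log2 fold changes were 4.15, 2.27, 5.33 and 2.48 by edgeR and 3.21, 1.31, 3.44 and 1.67 by limma on log2(CPM + 0.5).

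**Figure D5:**
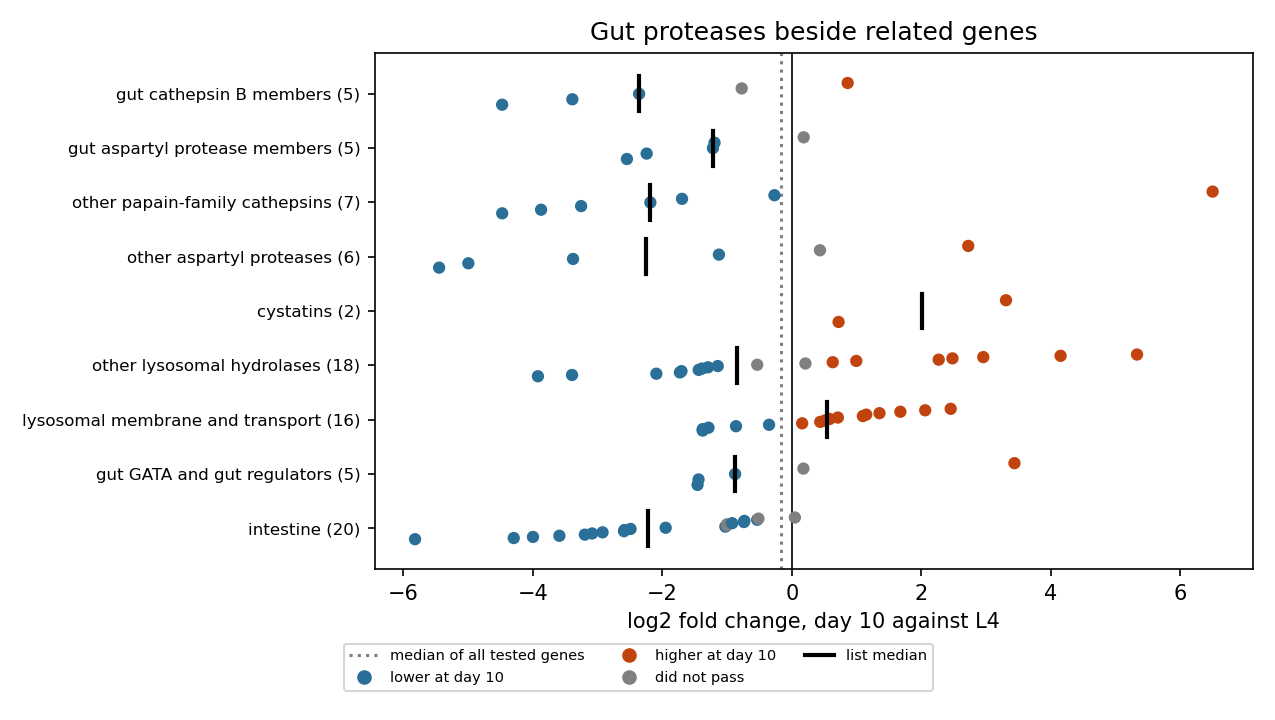
Log2 fold change, day 10 against L4, of each tested gene of the gut protease sets and related lists (number of tested genes in parentheses), coloured by its call, with a black bar at each list median. The cathepsin B-like and aspartyl members have medians of −2.36 and −1.22, the cystatins lie to the right of 0, and the lysosomal membrane genes have a median of 0.55.

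The gut itself was represented at both ages, and most of its listed markers moved in the direction of most of the proteases. The list was chosen with earlier results of these data known and does not stand for all gut transcripts. Of 20 intestine genes, 16 fell, none rose and 4 did not pass, where 45.0% of all tested genes fell and 40.5% rose. The median of the 20 log2 fold changes was −2.22. With upper-quartile factors 20 fell, where 8408 of all tested genes fell and 5301 rose. With DESeq2's size factors 16 fell and 1 rose, where 6770 of all tested genes fell and 6903 rose. Without day 10 replicate 3, 18 fell, against 46.0% of tested genes. The summed level of the 20 was 3743 to 3866 CPM in L4 and 986 to 1478 CPM at day 10, and none was at 0 in either age. The intestinal actin act-5 fell from 823 ± 7.43 to 108 ± 18.4 CPM and the proton pump subunit vha-6 from 652 ± 13.6 to 54.1 ± 17.7 CPM. Against the list's median of −2.22, the log2 fold changes of cpr-4 and cpr-5 were −3.39 and −4.47, and that of asp-6 was 0.18. The 20 listed genes themselves ran from −5.82 for pho-1 to 0.05 for let-413, so cpr-4 and cpr-5 lay within their range. Of 5 tested gut transcription factors, 3 fell and 1 rose: elt-2, the main GATA factor of the intestine, fell from 13.8 ± 1.90 to 7.50 ± 1.30 CPM, elt-7 and elt-4 fell by 1.44 and 1.46 on the log2 scale, and the endoderm factor end-3, active in embryos, rose on 5 counts in L4. The gene pqm-1 was at 35.7 ± 1.46 and 40.4 ± 5.31 CPM, which did not pass (edgeR's adjusted p = 0.138); it was lower with upper-quartile factors, at −0.27 (0.0381), and higher with DESeq2's size factors, at 0.34 (0.0122). The part of gut content in the protease results was not tested.

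The markers of other tissues also moved with age, and their counts too stand against 45.0% of all tested genes lower and 40.5% higher. The summed level of 12 germ line and oocyte genes was 1860.1 to 1878 CPM in L4 and 11413 to 16189.6 CPM at day 10, with 11 higher and 1 lower. Of 8 tested early embryonic genes, 7 rose and 1 fell, from a summed 18.9 to 24.4 CPM in L4 to 181 to 191 CPM at day 10, with 2 at 0 counts in an age. In the sperm list 8 of 8 fell, in body-wall muscle 10 of 10, in pharynx 7 of 8, in epidermis 9 of 10, in neurons 6 of 8 with 2 higher, and in coelomocytes, scavenger cells also rich in lysosomes, 3 of 3. Body-wall muscle genes summed to 19113 to 20566 CPM in L4 and 971 to 1032 CPM at day 10, and coelomocyte genes to 24.5 to 27.4 and 10.7 to 16.7 CPM. Their part in the protease levels was not tested either.

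For each protease, the gene with the most similar profile over the 6 libraries was sought among 4227 others (4228 for cpr-3) with a symbol and a mean of at least 50 CPM. Likeness was the root mean square difference of log2(CPM + 0.5) after centring each gene on its own mean. The closest matches were exc-15 for cpr-5 at 0.0425, acs-5 for cpr-6 at 0.0429 and smd-1 for asp-3 at 0.0432. The next were Y43C5A.2 for asp-4 at 0.0582, pho-11 for asp-5 at 0.0628, the desaturase gene fat-2 for asp-6 at 0.0718, noah-1 for cpr-4 at 0.0766, hlh-11 for asp-1 at 0.0789 and the saposin-like spp-5 for cpr-1 at 0.0979. The gene cpr-3 had no close match, gst-1 being nearest at 0.250. No member had another member as its nearest gene, but how often this holds for other genes was not computed. The gene cpr-3, below 50 CPM, was not among the candidates.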

How the data were processed

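The authors deposited raw read counts per gene. CASAVA 1.8, HISAT2 and HTSeq are named per the submitters' processing notes, while the build, strand and counting options are not given in the sources used here. The FPKM values deposited by the authors are the counts over a fixed length for each feature and over the total of the library, and were used to set genes side by side and in an alternative test. In the authors' deposited comparison, group means are a signal in scaled counts, and its p-values come from an unnamed test. Symbols and coordinates came by identifier from Ensembl release 115 (WBcel235), and the authors may have counted on another build; 43818 features had a symbol.

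Counts were tested with edgeR 4.0.16 in R 4.3.3 (TMM, default filter, robust quasi-likelihood, Benjamini-Hochberg at 0.05 over 15956 genes), day 10 against L4, with groups from the sample titles. The SE comes from the spread of log2(CPM + 0.5). Intervals at 95% came from limma 3.58.1, added after seeing the data. The steps were tested on simulated data with few changed genes and the same spread in every library. These data differ on both points, so that test does not cover the scaling or the day 10 spread. Alternatives were other scalings and filters, DESeq2 1.42.0, limma on log2 FPKM, a replicate block and each library left out. No replicate pair matched within sampling noise. The members and lists were chosen with earlier results of these data known. Named were all members, the 2 genes of highest mean CPM in each related list, genes against their list's direction and the nearest profiles. The genes cpr-8, tag-196, elt-4, elt-7, ges-1, pho-1, let-413 and single genes of the replicate 3 comparison were added after seeing values.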

Additional observations from a re-analysis of the deposited data

How the results depend on the processing

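Under 17 alternatives each, the falls of cpr-4, cpr-5, cpr-6, asp-1, asp-3 and asp-4 kept their direction and passed in every 1. The fall of asp-5 passed in 16, and with no filter on low counts it was −1.25 and did not pass (adjusted p = 0.0713). The rise of cpr-3 passed in 11 of 17; it was 0.41 with upper-quartile factors and 0.83 with no filter, where it did not pass and 0 members were higher, and 0.70 to 1.14 with a library left out. With a library left out, 0 to 2 members were higher. Of all tested genes, 6349 to 6679 were higher with a library left out, 5301 with upper-quartile factors and 6866 with no filter. For cpr-1 the log2 fold change was −1.23 with upper-quartile factors, where it passed (0.0307), and −1.06 to −0.40 with a library left out. For asp-6 it was −0.27 with upper-quartile factors and 0.067 to 0.41 with a library left out. Among other named genes, signs turned with upper-quartile factors for lmp-1 (−0.29), pqm-1 (−0.27) and fat-2 (−0.38), and without day 10 replicate 1 for fat-2 (−0.034 to 0.27 over the left-out libraries). Where the change came from a smaller set of libraries or another scaling, the cause within it was not tested. The labels do not say that the replicate numbers pair the samples. Deviations of same-numbered libraries correlated at 0.0190 to 0.0204 across genes, each the highest for its library. All other pairs lay at −0.0156 to −0.0050, and whether this weak likeness reflects pairing was not tested. With the replicate block 1 member was higher and 7 lower, as without it, against 6355 and 7042 of all tested genes. The members held 1335 or more counts per age, so counting depth was not their limit.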

Other observations

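Several lysosomal enzymes that are not proteases were as low in day 10 replicate 3 as the proteases, relative to day 10 replicates 1 and 2. The log2 difference was −1.38 for the glucosidase aagr-1, −1.05 for aagr-2, −1.08 for the mannosidase aman-1, −1.32 for the ceramidase asah-1 and −1.75 for the lipase lipl-1, while hex-1 was at 0.19, asm-1 at 0.84 and aagr-3 at −0.08. Over 18 tested hydrolases the median was −0.66, against −0.11 over 16 genes of the lysosomal membrane and transport. The lysozyme genes lys-1 and lys-8 were at −1.46 and −1.44, and their day 10 levels lay below every L4 library but did not pass the test (edgeR's adjusted p = 0.0692 and 0.0621; 0.0290 and 0.00290 without day 10 replicate 3). These genes were picked after their values were seen, and no cause was tested.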
